A study of Mus musculus with 4 samples.

Results

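The genes described here are 7 aquaporin genes of the kidney and the gene of the vasopressin V2 receptor: Aqp1, Aqp2, Aqp3, Aqp4, Aqp6, Aqp7, Aqp11 and Avpr2. They were chosen by symbol, and all 8 were found in both tables of the study, among 24582 genes listed in either. The Cis9w group was made up of male C57BL/6 mice injected weekly with cisplatin, an antitumour drug toxic to kidney tubules, at 8 mg/kg for a total of 4 doses, whose kidneys were taken 9 weeks after the first dose. The CT9w group was untreated. Each group had 2 samples, and no age, transgene or other allele is given in the labels. Nuclei came from cortex together with outer medulla, so the labels name no inner medulla, were captured in droplets and were counted as unique molecular identifiers (UMIs), each standing for 1 captured RNA molecule. One deposited table gives the average of every gene in 17 named clusters of nuclei, and the other gives Cis9w and CT9w averages in proximal tubule nuclei. The columns pool nuclei and name no sample, so replicate spread is unknown. The sources used here do not say whether 1 or both samples of a group made up either table. In the labels, the replicate 1 samples of both groups point to the table of proximal tubule nuclei and the replicate 2 samples to the table of clusters. If each table holds only those samples, the comparison of Cis9w with CT9w is between single samples.

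Aquaporins are membrane channels that let water pass along an osmotic gradient, and some of them, the aquaglyceroporins, also pass glycerol. In the kidney, Aqp1 serves constitutive water uptake in the proximal tubule, and the collecting duct adjusts the rest to the body's need. There vasopressin binds its V2 receptor on principal cells, cyclic AMP rises, protein kinase A is activated and Aqp2 vesicles move to the apical membrane. Water then leaves the cell through Aqp3 and Aqp4 in the basolateral membrane. Aqp6 is an intracellular channel of intercalated cells, Aqp7 an aquaglyceroporin of the last proximal tubule segment, and Aqp11 a channel of the endoplasmic reticulum.

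The 17 clusters held 36068714 UMIs in total, and a single cluster between 254460 (mixed-2) and 7425098 (PT-S2/S3). Cluster names are the authors'. PC, the principal cell cluster, had a summed average of 19.2 over 12 principal cell markers. It was 10.6 in CNT, a connecting tubule cluster, and 0.282 to 2.50 in the other 15. The summed average of 8 connecting tubule markers was 79.7 in CNT, 63.8 in DCT+CNT, 17.7 in PC and 0.935 to 4.29 elsewhere. DCT+CNT is named for both distal convoluted and connecting tubule. The summed average of 11 intercalated cell markers, with Aqp6 left out, was 26.9 in IC-A/IC-B and 0.0576 to 0.550 elsewhere. Averages are normalised UMIs per nucleus, and the intervals given with them and with their ratios cover counting error only, at 95%. The clusters were drawn from the same nuclei, so the p-values of the cluster table are given as a description.

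Aqp2, Aqp3 and Avpr2 had their highest average in PC and the next in CNT. Aqp2, the water channel that vasopressin moves to the apical membrane, averaged 0.604 in PC (319 UMIs, interval 0.539 to 0.674) and 0.241 in CNT (109 UMIs). The next value was 0.0749 in the endothelial cluster EC1 (23 UMIs), and the lowest was 0.00659 in PT-S3-2. PC lay 2.51 times above CNT (2.01 to 3.14) and CNT 3.22 times above EC1 (2.04 to 5.28), while no neighbours further down the order of the 17 clusters were apart beyond counting error. Against all clusters but PC and CNT, the level of Aqp2 was 34.9 times as high in PC (29.7 to 41.0) and 13.9 times as high in CNT (11.1 to 17.4). In DCT+CNT, Aqp2 averaged 0.0176 (20 UMIs) and Aqp3 0.00441 (5 UMIs), and Avpr2 had 1 UMI. CNT was above DCT+CNT 13.7 times for Aqp2 (8.43 to 23.2) and 9.02 times for Aqp3 (3.23 to 31.1). For Avpr2 it was 30.1 times above (4.45 to 1286).

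Aqp3, the basolateral channel for water and glycerol, averaged 0.104 in PC (55 UMIs), 0.0398 in CNT (18 UMIs) and 0.0292 in IC-A/IC-B (21 UMIs). PC was 2.62 times above CNT (1.51 to 4.73), and no other neighbours in its order were apart. Avpr2, the receptor itself, was the sparsest member, with 78 UMIs in all clusters together. It averaged 0.0738 in PC (39 UMIs), 0.0265 in CNT (12 UMIs), 0.0166 in Immune cells (3 UMIs) and 0.00414 in the thick ascending limb cluster TAL (6 UMIs), and it had 0 UMIs in Mixed-1, mixed-2 and Podocyte. PC lay 2.78 times above CNT (1.43 to 5.84) for Avpr2, and 46.4 times above all clusters but these (27.7 to 78.8). The span of Avpr2, chrX:73892102-73895502 on the plus strand of mm10, is overlapped over its whole 3401 bases by L1cam and Arhgap4 on the opposite strand. Those genes had 417 and 214 UMIs. The sources used here do not say whether counting used strand, which leaves the assignment of Avpr2 UMIs uncertain.

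PC was the cluster with the most members called higher. By the authors' deposited table, 4 of 8 members were higher in PC than in all other nuclei at p under 0.05, where 3.14% of all genes were, and 0 of 8 were lower. Their log2 fold changes there were 4.35 for Aqp2 (p = 4.16e-21), 3.51 for Aqp3 (p = 2.9e-08), 3.05 for Aqp4 (p = 1.94e-05) and 4.62 for Avpr2 (p = 1.43e-12), per the authors' deposited table. CNT had 2 of 8 higher, beside 1.43% of all genes, with log2 fold changes of 2.62 for Aqp2 (p = 0.000426) and 2.73 for Avpr2 (p = 0.0428) in the authors' deposited table. Aqp3 did not pass in CNT, although its level there was 6.56 times that of all clusters but PC and CNT (3.74 to 10.9). Both clusters together held 59.3% of the UMIs of Aqp2, 65.4% of Avpr2, 41.5% of Aqp3 and 23.6% of Aqp4, beside 5.46% of the UMIs of all genes.

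The promoters of the 3 genes that shared this order, PC before CNT before the rest, are shown to compare their sequences, followed by that of Aqp6, a neighbour of Aqp2 with another order. Each window runs from 250 bases before to 50 after the RefSeq start on build GRCm38.p6, 5′ to 3′ on the gene's strand. They lie at chr15:99578806-99579105 (plus strand, Aqp2), chr4:41098134-41098433 (minus strand, Aqp3), chrX:73891852-73892151 (plus strand, Avpr2) and chr15:99600950-99601249 (plus strand, Aqp6). Capitals mark matches to the motifs searched, on either strand.
Aqp2: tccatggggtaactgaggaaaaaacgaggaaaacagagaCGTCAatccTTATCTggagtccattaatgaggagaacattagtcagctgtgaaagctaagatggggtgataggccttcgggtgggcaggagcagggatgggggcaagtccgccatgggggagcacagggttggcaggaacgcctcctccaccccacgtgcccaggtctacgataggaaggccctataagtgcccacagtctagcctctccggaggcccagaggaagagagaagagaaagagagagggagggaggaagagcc
Aqp3: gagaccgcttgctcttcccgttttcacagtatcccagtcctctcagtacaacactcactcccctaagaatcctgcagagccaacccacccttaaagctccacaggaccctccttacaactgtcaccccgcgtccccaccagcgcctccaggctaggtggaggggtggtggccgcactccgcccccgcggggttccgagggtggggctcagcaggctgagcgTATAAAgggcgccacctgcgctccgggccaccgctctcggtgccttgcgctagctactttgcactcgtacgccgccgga
Avpr2: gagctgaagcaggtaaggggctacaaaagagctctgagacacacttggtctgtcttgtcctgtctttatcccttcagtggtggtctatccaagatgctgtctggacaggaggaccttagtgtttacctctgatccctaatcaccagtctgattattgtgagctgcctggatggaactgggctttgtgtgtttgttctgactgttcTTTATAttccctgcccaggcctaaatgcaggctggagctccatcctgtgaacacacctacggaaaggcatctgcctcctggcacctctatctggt
Aqp6: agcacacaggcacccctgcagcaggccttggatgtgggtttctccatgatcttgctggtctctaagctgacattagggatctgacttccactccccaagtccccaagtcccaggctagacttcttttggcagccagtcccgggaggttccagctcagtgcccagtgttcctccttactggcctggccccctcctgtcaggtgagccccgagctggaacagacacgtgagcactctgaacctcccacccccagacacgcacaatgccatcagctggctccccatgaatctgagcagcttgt
In the window of Aqp2, CGTCA, the reverse complement of the cyclic AMP response element core TGACG, begins 211 bases before the start, and TTATCT, the reverse complement of the GATA motif AGATAA, begins 202 bases before it. The window of Aqp3 holds TATAAA 29 bases before its start, and that of Avpr2 holds the same motif on the opposite strand, as TTTATA, 45 bases before. No match was found in the window of Aqp6, and none of the 4 holds the full element TGACGTCA, which overlaps that core. Of 32851 RefSeq promoter windows of this length, 20.8% hold TGACG or CGTCA, 11.2% AGATAA or TTATCT, 13.6% TATAAA or TTTATA and 1.79% TGACGTCA. The matches are a description of letters, not of bound sites. RefSeq and GENCODE place the start of Aqp6 differently.

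**Figure D1:**
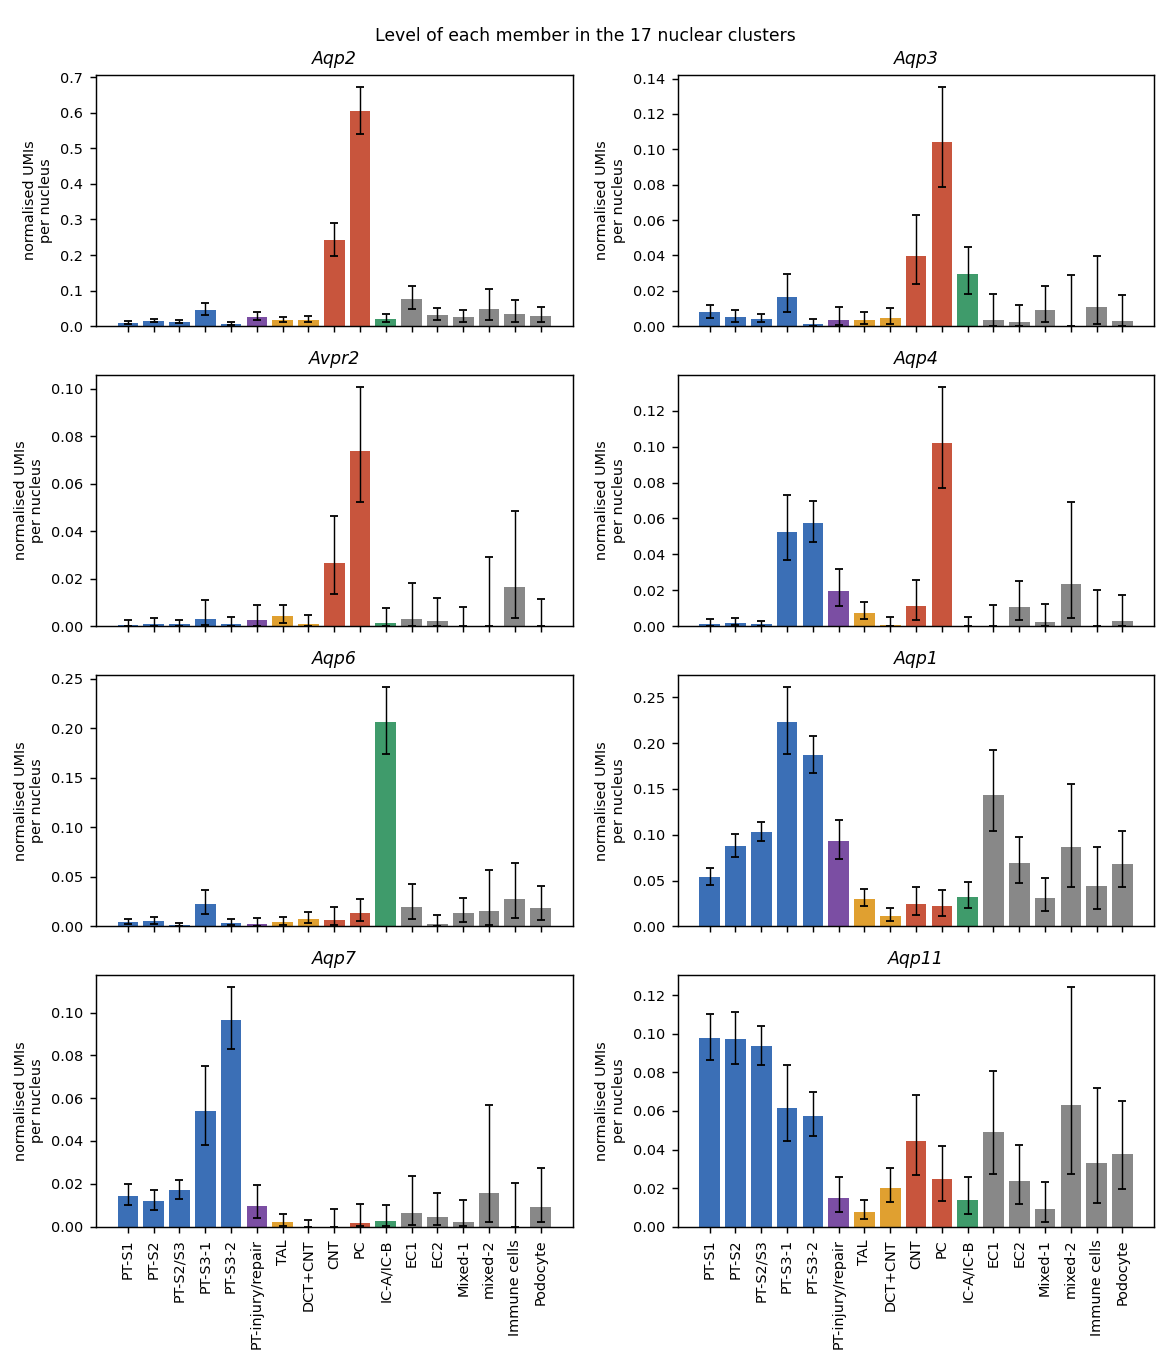
Average of each of the 8 genes (normalised UMIs per nucleus, vertical axis) in the 17 clusters, with 95% counting intervals. Each panel has its own scale. Aqp2, Aqp3, Aqp4 and Avpr2 are highest in PC, at 0.604, 0.104, 0.102 and 0.0738, Aqp6 in IC-A/IC-B at 0.206, and Aqp1, Aqp7 and Aqp11 in proximal tubule clusters.

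Aqp4, the other basolateral water channel of principal cells, was highest in PC too, but next in clusters of the proximal tubule. It averaged 0.102 in PC (54 UMIs), 0.0576 in PT-S3-2 (105 UMIs) and 0.0526 in PT-S3-1 (35 UMIs). PT-S3-1 and PT-S3-2, called the 2 S3 clusters here, are named for the S3 segment of the proximal tubule alone. PC was 1.77 times above PT-S3-2 (1.25 to 2.48), and no other neighbours in the order were apart. In CNT it averaged 0.0111 (5 UMIs), so PC was 9.25 times above CNT (3.73 to 29.6), and the CNT level was 0.982 times that of all clusters but PC and CNT (0.315 to 2.33). Aqp2, Aqp3 and Avpr2 were 2.51 to 2.78 times as high in PC as in CNT. For this ratio the interval of Aqp2 (2.01 to 3.14) lay below that of Aqp4. Those of Aqp3 (1.51 to 4.73) and Avpr2 (1.43 to 5.84) overlapped it. Aqp4 was close to the floor at 0.00148 in PT-S1 (4 UMIs), 0.00188 in PT-S2 (4 UMIs) and 0.00135 in PT-S2/S3 (5 UMIs). PT-S2/S3 is also named for S3, so the level of Aqp4 was not shared by all clusters with S3 in their name. The 2 S3 clusters together were 34.0 times above PT-S1 and PT-S2 (16.8 to 80.3). They held 56.0% of the UMIs of Aqp4, against 21.6% for PC. Aqp4 had 0 UMIs in EC1, IC-A/IC-B and Immune cells. It spans chr18:15389496-15410982 on the minus strand of mm10, and the antisense gene AC133525.2, with 6 UMIs, overlaps 7896 of its bases.

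Aqp6 was the member of intercalated cells. It averaged 0.206 in IC-A/IC-B (148 UMIs), 0.0276 in Immune cells (5 UMIs) and 0.0226 in PT-S3-1. IC-A/IC-B was 7.45 times above the next cluster (3.12 to 23.3) and 34.1 times above all others together (26.4 to 44.3), and no other neighbours in the order were apart. The level in PC was 0.0132 (7 UMIs), and IC-A/IC-B stood 15.5 times above it (7.36 to 39.3). The log2 fold change of Aqp6 in IC-A/IC-B was 4.51 (p = 2.59e-22) in the authors' deposited table, where it was the 1 member of 8 that was higher, beside 3.27% of all genes. This cluster held 58.7% of the UMIs of Aqp6, beside 4.00% of the UMIs of all genes. Aqp3 in IC-A/IC-B was 3.25 times its level in all other clusters together (1.96 to 5.14), without passing the deposited test.

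Aqp2, Aqp5 and Aqp6 lie side by side on the plus strand of chromosome 15. Aqp2 spans chr15:99579055-99584547, Aqp5 chr15:99590782-99594829 and Aqp6 chr15:99601400-99605477 on mm10, and from the start of Aqp2 to the end of Aqp6 there are 26423 bases. The outer genes of this row had different highest clusters, PC for Aqp2 and IC-A/IC-B for Aqp6. Aqp5, known as a channel of secretory glands, had 3 UMIs in all, each of them in IC-A/IC-B, with a log2 fold change of 5.87 (p = 0.00722) there in the authors' deposited table. Across the 17 clusters Aqp2 and Aqp6 had a Pearson r of 0.101 and a Spearman rho of 0.485 of log2(average + 0.01), as a description of clusters that share libraries.

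The proximal tubule members were Aqp1, Aqp7 and Aqp11, and each had a different order over the segments. Aqp1, the constitutive water channel of the apical and basolateral membranes, averaged 0.223 in PT-S3-1 (148 UMIs), 0.187 in PT-S3-2 (341 UMIs), 0.103 in PT-S2/S3 (382 UMIs), 0.0878 in PT-S2 (187 UMIs) and 0.0541 in PT-S1 (146 UMIs). The 2 S3 clusters were 2.85 times above PT-S1 and PT-S2 together (2.48 to 3.29), although no neighbours in the order of the 17 clusters were apart. Aqp7, which passes water and glycerol, averaged 0.0966 in PT-S3-2 (176 UMIs), 0.0542 in PT-S3-1 (36 UMIs) and 0.0117 to 0.0170 in PT-S2/S3, PT-S1 and PT-S2. PT-S3-2 was 1.78 times above PT-S3-1 (1.24 to 2.63), and PT-S3-1 was 3.18 times above PT-S2/S3 (2.05 to 4.86). For Aqp7 the 2 S3 clusters were 6.43 times above PT-S1 and PT-S2 (4.84 to 8.65).

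Aqp11 ran the other way. This channel, whose loss in mice causes vacuoles in the proximal tubule and cystic kidneys, averaged 0.0978 in PT-S1 (264 UMIs), 0.0971 in PT-S2 (207 UMIs), 0.0936 in PT-S2/S3 (346 UMIs), 0.0617 in PT-S3-1 (41 UMIs) and 0.0576 in PT-S3-2 (105 UMIs). The S3 clusters together were at 0.602 times PT-S1 and PT-S2 (0.497 to 0.726). No neighbours in the order of Aqp11 were apart beyond counting error. Of the UMIs of each gene, the 6 proximal tubule clusters held 84.5% for Aqp1, 95.6% for Aqp7 and 88.0% for Aqp11, beside 65.9% for all genes.

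The deposited calls followed these levels in part. In PT-S3-2, 3 of 8 members were higher than in all other nuclei, beside 3.62% of all genes, and 3 of 8 lower, beside 7.5%. The higher ones had log2 fold changes of 1.06 for Aqp1 (p = 0.0175), 2.42 for Aqp4 (p = 3.34e-08) and 2.85 for Aqp7 (p = 3.77e-15) in the authors' deposited table, and the lower ones were Aqp2, Aqp3 and Aqp6. Aqp11 was higher in PT-S2/S3, by 0.74 on the log2 scale (p = 0.0363) in the authors' deposited table, where 3.05% of all genes were higher. Aqp1 and Aqp11 were lower in TAL by the deposited test, as was Aqp7, at log2 fold changes of -1.73 (p = 0.0289) for Aqp1 and -3.01 (p = 0.000113) for Aqp11 in the authors' deposited table, beside 5.52% of all genes. In DCT+CNT, the cluster named for distal convoluted and connecting tubule, Aqp1, Aqp4 and Aqp7 were lower, beside 5.44% of all genes. Aqp1 had its lowest level there, 0.0115, with a log2 fold change of -3.06 (p = 0.000911) in the authors' deposited table. Collecting duct and intercalated members were also lower in PT-S1, PT-S2/S3 and PT-S2. Of the 8, 4 were lower in PT-S1 (Aqp2, Aqp4, Aqp6 and Avpr2), beside 9.77% of all genes, 5 in PT-S2/S3 (these and Aqp3), beside 13%, and 2 in PT-S2 (Aqp2 and Aqp4), beside 7.63%. PT-S3-1, where Aqp1 was highest, had no member called, with 0.327% of all genes higher. Its log2 fold change for Aqp1 was 1.25 (p = 0.709) in the authors' deposited table. PT-S3-1 had the highest share of mitochondrially encoded UMIs of all clusters, 0.251%, and the highest summed average of erythroid markers, 0.399. The part of free RNA in the levels of PT-S3-1 was not tested.

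Outside the proximal tubule Aqp1 had its highest average in EC1, 1 of the 2 endothelial clusters; in endothelium it is known from the vasa recta. It averaged 0.143 in EC1 (44 UMIs), 0.0868 in mixed-2 (11 UMIs), 0.0689 in EC2 (32 UMIs) and 0.0686 in Podocyte (22 UMIs). EC1 was 2.08 times above EC2 (1.29 to 3.39), while EC2 was not apart from mixed-2 or Podocyte. Aqp2 was also higher in EC1, at 2.48 times EC2 (1.23 to 5.22). Proximal tubule markers summed to 4.29 in EC1 and 2.39 in EC2, endothelial markers to 17.5 and 23.5, and erythroid markers to 0.261 and 0.287. The share of mitochondrially encoded UMIs was 0.233% in EC1 and 0.116% in EC2. Together EC1 and EC2 were 3.34 times above the 9 other clusters outside the proximal tubule (2.51 to 4.42). They held 5.02% of the UMIs of Aqp1, beside 4.29% of the UMIs of all genes. The 6 proximal tubule clusters also held 22.7% of the UMIs of Aqp2 and 17.9% of those of Avpr2, at low levels in each. Aqp2 averaged 0.0451 in PT-S3-1 (30 UMIs) and 0.00659 in PT-S3-2, and PC markers summed to 0.296 to 1.04 in the 5 proximal tubule clusters other than PT-injury/repair. The part of free RNA in these levels, and in that of Aqp1 in EC1, was not tested.

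**Figure D2:**
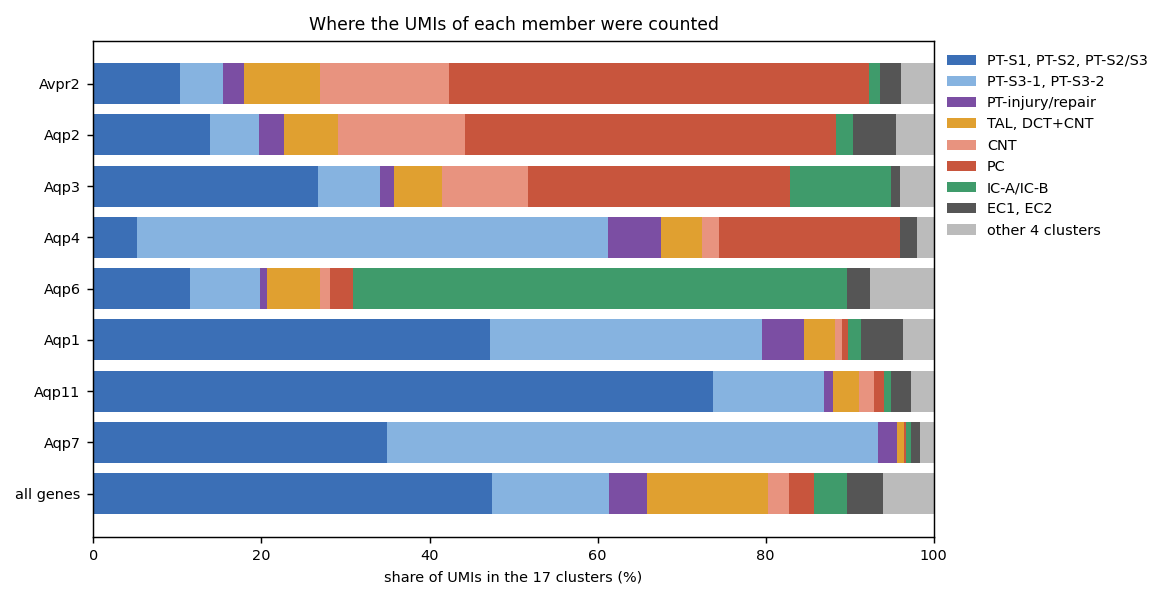
Share of the UMIs of each gene (%, horizontal axis) that fell in each group of clusters, with all genes as the bottom bar. PC and CNT held 59.3% of the UMIs of Aqp2 and 65.4% of those of Avpr2, against 5.46% for all genes, and the proximal tubule clusters held 95.6% of those of Aqp7.

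PT-injury/repair is the cluster the authors named for injured or repairing tubule. Aqp7 and Aqp11 were at lower levels there than in the other 5 proximal tubule clusters pooled, while the interval of Aqp1 included no difference from that pool. Proximal tubule markers as a whole were lower there, with a summed average over 12 genes of 4.33, against 25.7 to 41.7 in the other 5. Aqp11 averaged 0.0147 there (12 UMIs) and was at 0.168 times the other 5 proximal tubule clusters together (0.0863 to 0.294). Aqp7 averaged 0.00977 (8 UMIs), at 0.317 times those 5 (0.136 to 0.632). For Aqp7, PT-S2 at 0.0117 was not apart from PT-injury/repair (1.20 times, 0.525 to 3.08). Aqp1 averaged 0.0928 (76 UMIs), at 0.849 times those 5 (0.664 to 1.07). That level lay above PT-S1, at 0.0541, and below PT-S3-2, at 0.187. Aqp4 averaged 0.0195 (16 UMIs), at 1.41 times those 5 (0.784 to 2.36). That pool mixes unlike levels of Aqp4, 0.0576 in PT-S3-2 and 0.0526 in PT-S3-1 against 0.00135 to 0.00188 in the others. The level in PT-injury/repair lay between them. Aqp2 averaged 0.0269 (22 UMIs) and was 2.08 times as high as in the other 5 (1.27 to 3.28), beside a summed average of principal cell markers of 1.37, against 0.296 to 1.04 in those 5. Descending thin limb markers, whose cells also carry Aqp1, summed to 1.60 in PT-injury/repair, and 6 of the 8 passed there in the authors' deposited table. Their sum was 2.28 in Mixed-1, where 1 of the 8 passed and Aqp1 averaged 0.0313 (14 UMIs). It was 0.0333 to 0.994 in the remaining clusters. The part of descending thin limb and principal cells in the Aqp1 and Aqp2 levels of PT-injury/repair was not tested. Nor was that of the lower proximal tubule markers in its levels of Aqp7 and Aqp11. No member was called in PT-injury/repair, where 4.61% of all genes were higher and 0.621% lower than in all other nuclei.

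The genes most like each member over the 17 clusters were ranked by the Pearson r of log2(average + 0.01) among 13427 genes with at least 100 UMIs. Those of Aqp2 were Kcne1, a potassium channel subunit (r = 0.957), Fxyd4, a regulator of the sodium pump (0.949), and Hsd11b2, the enzyme that inactivates glucocorticoids in principal cells (0.934). Those of Aqp6 were Atp6v1g3, a subunit of the proton pump (0.940), Slc4a1, the chloride and bicarbonate exchanger of acid-secreting cells (0.930), and Clnk (0.926). Aqp7 was most like Atp7b, a copper transporter (0.969), Spatc1 (0.952) and Gpm6a (0.949), and Gpm6a was also among the 3 most like Aqp1, with Txn1, a thioredoxin, and Calml4. Aqp11 was followed by Fbxo40 (0.900), Fbxo7 (0.897) and Fbp1, a gluconeogenic enzyme (0.891), Aqp4 by Panct2 (0.830), Gm3604 (0.818) and Slco4c1 (0.810), and Aqp3 by Fanca (0.909), Pigq (0.890) and Slc7a15 (0.880). Avpr2, with 78 UMIs, was left out. Between members, Aqp2 and Avpr2 had r = 0.865 and rho = 0.504, Aqp3 and Avpr2 r = 0.832 and rho = 0.435, and Aqp1 and Aqp7 r = 0.832 and rho = 0.857. In the pairs with Avpr2, r was higher than rho. All these are descriptions over 17 clusters that share libraries, depth and 1 clustering.

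The comparison of Cis9w with CT9w in proximal tubule nuclei asks what differs weeks after the last dose. None of the 8 members passed the deposited test, where 2.13% of 21312 genes did. Among the 7 members with at least 10 UMIs, the log2 fold changes ran from -1.01 to 0.90 in the authors' deposited table, and their median was -0.10. All 15386 genes at that floor had a median of 0.04 and quartiles of -0.20 and 0.30. The Cis9w pool held 8557662 UMIs and the CT9w pool 5123727, and an average of 3 UMIs is 0.000981 in Cis9w and 0.00164 in CT9w. Each pool mixes the segments, so a smaller share of nuclei of a segment and less RNA per nucleus cannot be told apart.

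Of the proximal tubule members, Aqp1 averaged 0.140 in Cis9w (427 UMIs) and 0.158 in CT9w (290 UMIs), a ratio of 0.882 (0.758 to 1.03). Aqp11 averaged 0.110 in Cis9w (337 UMIs) and 0.130 in CT9w (239 UMIs), a ratio of 0.844 (0.713 to 1.00). Aqp7 averaged 0.0415 in Cis9w (127 UMIs) and 0.0409 in CT9w (75 UMIs), a ratio of 1.01 (0.756 to 1.37). These 3 intervals include 1, that of Aqp11 only just, and each gene had p = 1 in the authors' deposited table. They leave room for at most a 1.37-fold increase of Aqp7 or a decrease to 0.713 times for Aqp11 as far as counting goes.

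Aqp4 was the member whose counting interval lay apart from 1. It averaged 0.0124 in Cis9w (38 UMIs) and 0.0251 in CT9w (46 UMIs), a ratio of 0.495 (0.313 to 0.777), with a log2 fold change of -1.01 and p = 0.380 in the authors' deposited table, so it was not called. Most of the proximal tubule UMIs of Aqp4 and Aqp7 in the cluster table came from the S3 clusters, but their ratios here were unlike. The ratio of Aqp4 divided by that of Aqp7 was 0.488 (0.282 to 0.844), a pair chosen after the values were seen. Of 12 proximal tubule markers 3 fell, all of them known from S3, beside 1.14% of all genes. Slc7a13, an amino acid transporter, had a ratio of 0.287 (p = 6.62e-10), Cyp7b1, a hydroxylase of oxysterols, 0.159 (p = 4.81e-15) and Slc22a30 0.522 (p = 0.0112), with the p-values from the authors' deposited table. The ratio of Aqp4 was 1.72 times that of Slc7a13 (1.09 to 2.71) and close to that of Slc22a30, and that of Aqp7 was 3.53 times that of Slc7a13 (2.63 to 4.78).

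The collecting duct members were at low levels in both pools. Aqp2 averaged 0.0183 in Cis9w (56 UMIs) and 0.0164 in CT9w (30 UMIs), a ratio of 1.12 (0.705 to 1.80). Aqp3 averaged 0.00882 in Cis9w (27 UMIs) and 0.00437 in CT9w (8 UMIs), a ratio of 2.02 (0.893 to 5.15). Avpr2 had 6 UMIs in Cis9w and 1 in CT9w, a ratio of 3.59 (0.436 to 165), and Aqp6 had 13 in Cis9w and 8 in CT9w, a ratio of 0.973 (0.374 to 2.71). No difference was detectable at this depth for these 4, whose p-values were 0.976 for Aqp3 and 1 for the others in the authors' deposited table.

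Other principal cell genes were not all like Aqp2 in this comparison. Of 12 principal cell markers, 3 rose and 0 fell, beside 0.995% and 1.14% of all genes, and 9 were not called. The list's median log2 fold change was 1.20 in the authors' deposited table. Those that rose were Scnn1b, a sodium channel subunit, at 3.25-fold (p = 0.0188), Hsd11b2 at 3.03-fold (p = 0.0311) and Rhcg, an ammonia channel, at 3.72-fold (p = 0.00605), with the p-values from the authors' deposited table. The 12 summed to 0.857 in Cis9w and 0.691 in CT9w. Among the 3 genes most like Aqp2, the ratios were 8.38 for Kcne1 (28 UMIs in Cis9w and 2 in CT9w, p = 0.0641 in the authors' deposited table), 3.03 for Hsd11b2 and 0.875 for Fxyd4 (38 UMIs in Cis9w and 26 in CT9w). The ratio of Aqp2 was 0.369 times that of Hsd11b2 (0.177 to 0.760), 0.133 times that of Kcne1 (0.0146 to 0.599) and 1.28 times that of Fxyd4 (0.620 to 2.62), pairs chosen after the values were seen. Intercalated cell markers, here with the member Aqp6 among them, summed to 0.215 in Cis9w and 0.0863 in CT9w. Of these 12, 1 was higher, Slc4a9, a transporter of bicarbonate in type B cells. Descending thin limb markers summed to 0.187 in Cis9w and 0.275 in CT9w, with 0 of 8 called, and erythroid markers to 0.113 in Cis9w and 0.186 in CT9w, with Hbb-bs lower. Endothelial markers, with 0 of 10 called, summed to 0.291 in Cis9w and 0.194 in CT9w. Connecting tubule markers summed to 2.58 in Cis9w and 1.92 in CT9w, with none called. Thick ascending limb markers summed to 3.10 in Cis9w and 3.36 in CT9w, with Kcnt1 lower. Distal convoluted tubule markers summed to 1.99 in Cis9w and 2.16 in CT9w, with none called. Of 8 injured proximal tubule markers, 7 rose, and the list summed to 1.45 in Cis9w and 0.238 in CT9w. The part of other cells, free RNA or injured nuclei in the members' ratios was not tested.

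**Figure D3:**
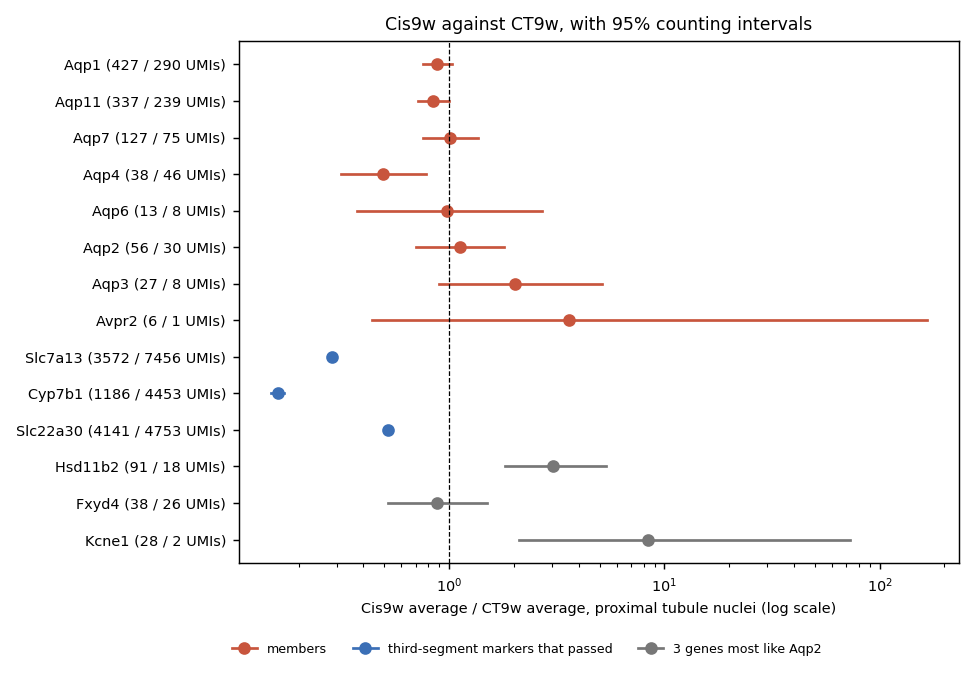
Ratio of the Cis9w average to the CT9w average in proximal tubule nuclei (log axis) with 95% counting intervals, for the 8 members, 3 S3 markers that passed the deposited test and the 3 genes most like Aqp2; UMIs are given as Cis9w / CT9w. Of the members, Aqp4 alone has an interval apart from 1 (0.313 to 0.777), and the 3 S3 markers lie at 0.159 to 0.522.

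The genes that act with the members were followed in 6 lists. Vasopressin receptors and cyclic AMP signalling had 32 genes in the proximal tubule table, with 2 higher, 1 lower and 29 not called. Their median log2 fold change at 10 UMIs or more was 0.17 in the authors' deposited table. Pde3b, a phosphodiesterase that breaks down cyclic AMP, averaged 0.101 in Cis9w (309 UMIs) and 0.0464 in CT9w (85 UMIs), 2.18-fold (1.71 to 2.80, p = 0.0375 in the authors' deposited table). Pde4b, another such enzyme, averaged 0.230 in Cis9w (704 UMIs) and 0.109 in CT9w (200 UMIs), 2.11-fold (1.80 to 2.48, p = 0.0188 in the authors' deposited table). Prkar2b, a regulatory subunit of protein kinase A, fell to 0.00425 in Cis9w (13 UMIs), against 0.0153 in CT9w (28 UMIs), a ratio of 0.278 (0.132 to 0.555, p = 0.0265 in the authors' deposited table). Those 3 calls, of 32, stand beside 2.13% of all genes. In Aqp2 vesicle trafficking and turnover, 1 of 28 rose, 0 fell and the median was 0.10. It was Anxa2, an annexin that binds membranes, which averaged 0.05 in Cis9w (153 UMIs) and 0.0142 in CT9w (26 UMIs), 3.52-fold (2.31 to 5.57, p = 0.00352 in the authors' deposited table).

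None of the other 4 lists had a called gene. Over genes with at least 10 UMIs, the medians in the authors' deposited table were -0.01 for 14 of 16 transcription factors of principal cells and tonicity, -0.46 for 9 of 10 genes of urea and osmolyte handling and -0.16 for 8 of 8 genes of glycerol handling. Of other aquaporins, Aqp9, an aquaglyceroporin, had 3 UMIs in Cis9w and 0 in CT9w, Mip, the lens channel, 2 in Cis9w and 0 in CT9w, and Aqp12 1 in Cis9w and 0 in CT9w. Over the 17 clusters Aqp9 had 6 UMIs, 5 of them in Immune cells (average 0.0276), with a log2 fold change of 8.47 (p = 0.000521) there in the authors' deposited table, beside 4.25% of all genes higher in that cluster. Mip had 2 and Aqp12 1.

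**Figure D4:**
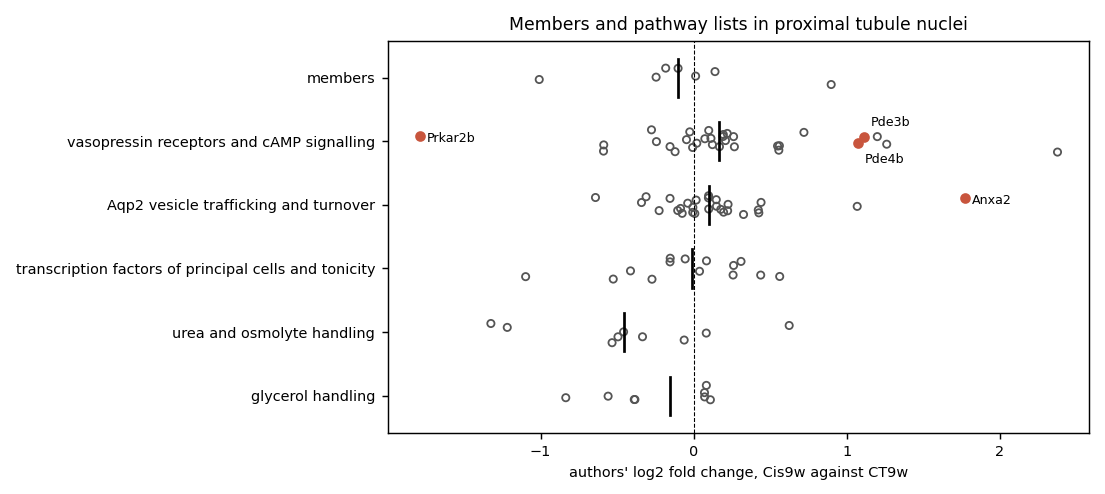
Log2 fold change of Cis9w over CT9w in the authors' deposited table (horizontal axis) for each gene with at least 10 UMIs in 5 lists and the members; filled points passed at p under 0.05 and the bar is the median. Pde3b, Pde4b and Anxa2 are higher and Prkar2b is lower, and no member is called.

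In PC itself the same lists had most of their calls among transcription factors. Of 16 factors, 8 were higher in PC, 1 lower and 7 did not pass, beside 3.14% of all genes higher and 1.08% lower. They included Tfcp2l1 (average 3.09, log2 fold change 2.14, p = 0.00162), Gata3 (0.545, 3.69, p = 6.66e-14), Ehf (0.840, 4.07) and the mineralocorticoid receptor Nr3c2 (6.83, 2.74, p = 1.06e-06), with fold changes and p-values from the authors' deposited table. Gata2, Elf5, Grhl2 and Hes1 were the others, and Nr1h4, the bile acid receptor, was lower at 0.0511. In vasopressin and cyclic AMP signalling 3 of 33 were higher and 0 lower: Ptger1, a prostaglandin E2 receptor (average 0.189), P2ry2, a nucleotide receptor (0.0265), and Pde3b (1.10), with log2 fold changes of 4.70, 2.86 and 3.41 in the authors' deposited table. Pde4d, another phosphodiesterase, averaged 5.90 in PC. Pde3b was higher in PC than in all other nuclei and rose in the proximal tubule pool of Cis9w. Of 28 trafficking genes, Mal, a raft protein, was higher at 0.530 (log2 fold change 2.01, p = 0.00366 in the authors' deposited table), and the ubiquitin ligases Nedd4l and Nedd4 averaged 3.96 and 0.746 in PC. None of 10 urea and osmolyte genes was called in PC, where Slc6a6, the taurine transporter, averaged 0.460 and Akr1b3, the aldose reductase that makes sorbitol, 0.0719. Of 8 glycerol genes, Gk, the glycerol kinase, was lower at 0.157 (log2 fold change -3.79, p = 0.0310 in the authors' deposited table). It was highest in PT-S3-2 at 4.45, the cluster in which Aqp7 was highest too, while Gpd2, a mitochondrial glycerol phosphate dehydrogenase, averaged 0.165 in PC.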

How the data were processed

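RNA of single nuclei was measured in 4 samples, 2 of Cis9w and 2 of CT9w, captured in droplets for 3' counting per the labels' protocols. The submitters' processing notes name Cell Ranger 5.0.1 and mm10. How nuclei were clustered, how doublets and free RNA were handled, which test gave the p-values and whether strand was used: none of these is given in the sources used here.

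Per the file headers, each gene has an average, a p-value and a log2 fold change. The averages that the authors deposited are a signal, normalised UMIs per nucleus. Each column sums to the same total, 2008 for clusters and 2797 for the proximal tubule groups. An average is thus proportional to a gene's share of the column's UMIs. Since scaling differed between the tables, no level was compared across them. The log2 fold change that the authors deposited compares Cis9w with CT9w, or a cluster with all other nuclei. A gene was called when the deposited p-value was under 0.05.

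UMI sums were recovered as whole multiples of each column's step, within 0.1 UMI for 100% of values of the cluster table and 99.9953% of the proximal tubule table. The tables hold 24468 and 21312 genes. Ratios got Clopper-Pearson intervals and averages exact Poisson intervals (95%, scipy 1.17.1), which cover counting error only and leave out differences between nuclei and animals. A count test on the recovered UMIs was not possible, since each group has 1 column, and the same holds for a test across samples. Whether the replicates came from separate animals is not stated in the labels. Averages are not per length, so those of different genes are not a comparison of their levels. Gene positions are from GENCODE M21 and promoter sequences from RefSeq (GRCm38.p6), matched by symbol for 7 of 8 members. The scripts were tested on simulated data.

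The members, the 6 pathway lists and the cell type marker lists were chosen with earlier results of these data known. Of the pathway list symbols, Aqp8, Avpr1b and Gyk had no entry in the cluster table. The genes named are the members, other aquaporins with at least 1 UMI, from each list the called genes (up to 3 in each direction, by size) and the 2 of highest average in PC, and for each member with at least 100 UMIs the 3 genes most like it. Marker lists are given by summed level. Transcription factors past 3 in PC and the pairs of ratios were named after their values were seen. Other settings tried were other scalings, pseudocounts of 0.001 and 0.1, a fold change minimum (log2 of 1), p under 0.01, UMI minimums of 10, 20 and 100, and Spearman in place of Pearson.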

Additional observations from a re-analysis of the deposited data

How the results depend on the processing

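No paired analysis was possible because no column of either table carries a sample or a replicate number, and leaving out a replicate was not possible for the same reason. Scaling to total UMIs could not change the 8 Cis9w to CT9w ratios, since both columns already sum to the same total. Division by the median ratio of genes with at least 10 UMIs moved all 8 by 1 common factor. With that division or a pseudocount of 0.001, the 8 ratios stayed inside their counting intervals. All kept their side of 1 except that of Aqp7, which was 0.977 after division by the median ratio, against 1.01 as reported. Avpr2 was at 1.92 with the pseudocount, against 3.59. Of the list medians, that of glycerol handling was 0.07 over genes with at least 100 UMIs, against -0.16. The count of 0 members called could not rise at p under 0.01, with log2 fold changes past 1 in size, or over members with at least 10 UMIs. These stricter settings are therefore no check of it. At p under 0.01 the vasopressin and cyclic AMP list had 0 called genes in place of 3, since its p-values were between 0.0188 and 0.0375. By share of UMIs in place of average, the leading cluster changed for 3 members, to PT-S2/S3 for Aqp1 and Aqp11 and PT-S3-2 for Aqp4. The genes most like a member depended on the measure: with Spearman, 0 of the 3 were shared for Aqp1, Aqp3, Aqp4 and Aqp11 and 1 for Aqp7. With a pseudocount of 0.1, 1 of the 3 was shared for Aqp1, Aqp3 and Aqp7, and with at least 20 UMIs, 1 for Aqp3. The cause was not tested. Depth limits Avpr2, Aqp6 and Aqp3 in the proximal tubule pools, where CT9w had 1, 8 and 8 UMIs.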
